A study of Schizosaccharomyces pombe with 2 samples.

Results

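Wild-type RNA of the fission yeast Schizosaccharomyces pombe was followed along 8 tiled stretches of genome, strand by strand, in the green (Cy3) channel of both arrays of the series. The green channel of each array carried RNA of wild-type cells, which made up 2 of the 4 channels measured. The other channels held RNA of asf1-1 cells on one array and of cells lacking hip1 on the other. No value of theirs was used directly. All cultures were in logarithmic growth at 30 °C in the rich medium YEA. The labels give no strain, mating type or further genotype for the wild-type cells, and no source used here says whether both arrays carried the same extract. The arrays are therefore named after their mutant, as the asf1-1 array and the hip1 deletion array, although only their wild-type channel is described, and where a pair of values is given without further word the asf1-1 array comes first. With 1 hybridisation of wild-type RNA on each of 2 arrays no test was run, and every statement below is a description of these 2 hybridisations.

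All 43993 non-control probes of the array carried a position and were members, and 737 that the scanner software had called an outlier spot on at least 1 array were left out, which left 43256. Probes were 60 bases long, one every 50 bp on alternate strands, so each 1-kb window held about 10 probes of each strand. The strand of a probe is the orientation in which its position is written, and the files do not state which RNA strand it binds. The probes are paired with no gene, no source used here names their genome build, and the 4 sequences they lie on are called by their numbers. There were 2204 windows with both strands measured, or 4408 strand-windows.

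Fission yeast genes are packed closely on both strands of 3 nuclear chromosomes, so a tiling array that reads each strand separately shows where transcripts start, stop, meet and overlap. Opposed genes that point towards each other often have overlapping 3′ ends, whereas genes that point away from each other are separated by promoter sequence. The best known poorly transcribed domains are heterochromatic. They lie at the centromeres, where a unique central core is flanked by inverted repeats, at the mating-type region and next to the telomeres, and the ribosomal RNA genes form tandem repeats at the ends of chromosome III. In the gene table of assembly ASM294v3 the outermost listed genes of chromosome III are ribosomal RNA genes and long non-coding RNA genes. That table was used for this statement of names alone, and no window was assigned to a gene or domain.

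Signal was the median intensity of a spot minus that of its local background, scaled so that the arrays had the same median over probes above background on both. Its log2 was floored at 6.16, which is 71.7 intensity units. The local background had a median of 21 units on each array, and the median probe stood 433 units above it on the asf1-1 array versus 326 on the hip1 deletion array before scaling. No spot was saturated. The scanner software called 79.2% of probes well above background on the asf1-1 array versus 78.6% on the hip1 deletion array, against 2.17% and 0.789% of the 507 negative control spots. Plus-strand probes were above background at 79.1% and 78.7%, and minus-strand probes at 79.3% and 78.5%, so neither strand was favoured.

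Most of the tiled genome gave signal on both strands. A strand of a window was called on when at least 50% of its probes were well above background on both arrays, off when under 50% were so on both, and otherwise as differing between arrays. By this rule 1549 of the 2204 windows (70.3%) were two-stranded and 419 (19.0%) were one-stranded, of which 209 were on for plus and 210 for minus. Only 53 windows, 2.4% of all windows, were silent, that is off on both strands, and in 183 (8.30%) the arrays differed. On the asf1-1 array alone 1655 windows were two-stranded, 489 one-stranded and 60 silent, and on the hip1 deletion array alone 1616, 532 and 56. Of the 3689 strand-windows called on, 222 had exactly 50% of probes above background on one of the arrays, just inside the threshold, and 175 of the 534 called off had between 40% and 50%, just outside it. The class of these windows hangs on single probes. The counts follow the rule: when 80% of probes had to be above background there were 898 two-stranded, 889 one-stranded and 193 silent windows, and when the scanner's less strict test of positive and significant signal was used there were 57 one-stranded and 17 silent windows.

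Two-stranded did not mean equally strong. The level of a strand-window was the median log2 signal of its probes, and the brighter strand of a window had a median level of 12.15 over all windows, with 50% of windows between 10.25 and 13.32. The dimmer strand had a median of 6.83, with 50% of windows between the floor and 7.94. The difference between the strands had a median of 4.66 log2 units, 4.54 on the asf1-1 array versus 4.77 on the hip1 deletion array. Most windows thus had one strong strand and a weak signal opposite it.

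A window was called one-sided where its strands were at least 4-fold apart in the same direction on both arrays. This held for 1642 windows, 74.5% of all windows, with plus the brighter strand in 829 and minus in 813. In no window did the arrays put the brighter strand on opposite sides at that threshold, and in 67 the difference passed it on 1 array alone. Of the two-stranded windows 1137 (73.4%) were one-sided, and the other 412 had both strands within 4-fold of each other or passed on 1 array alone. There were 57 one-sided windows whose smaller difference lay within 0.25 log2 units above the threshold, and 45 windows lay within 0.25 below it. Both strands reached a level of 10 on both arrays in 98 windows (4.45%).

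**Figure D1:**
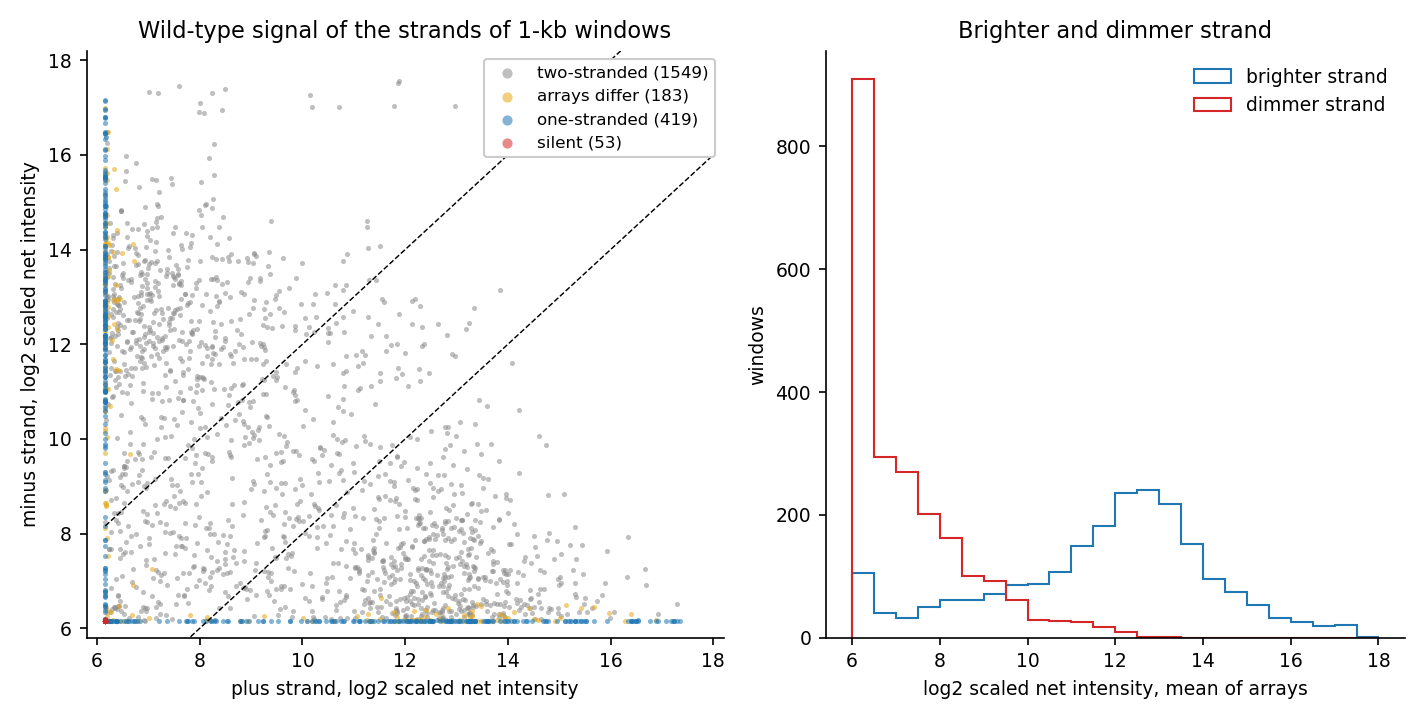
Left, the plus-strand level (x axis) against the minus-strand level (y axis) of each of the 2204 windows, in log2 scaled net intensity as the mean of both arrays, coloured by class, with dashed lines at a 4-fold difference. Right, the number of windows by level of the brighter and of the dimmer strand. Most windows lie outside the dashed lines, and the dimmer strand piles up at and just above the floor of 6.16.

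Above a level of 11, the signal opposite a strong strand did not grow with that strand. In the long block the median dimmer level was at the floor where the brighter strand lay at 8 or below. It was 6.97 where the brighter strand lay between 8 and 9, and 7.38 between 9 and 10. The median was 7.61 where the brighter strand lay between 10 and 11, and 6.97 again between 12 and 13. In the 134 windows whose brighter strand exceeded 15 it was at the floor, and 35.1% of those windows were two-stranded. The median dimmer level was thus highest opposite strands between 10 and 11. The dimmer strand cannot pass the brighter one, so the rise over the lower levels is in part set by the measure.

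The windows with the strongest signal on one strand and none opposite are the clearest one-sided cases. The largest strand difference among one-stranded windows was at 2145011-2146020 of sequence 2, where the plus strand was at 17.19 on the asf1-1 array versus 17.50 on the hip1 deletion array while the minus strand was at the floor on both. Its 10 plus probes were alike, with an SD of 0.23 and 0.22. The window at 1108011-1109020 was similar, with plus at 17.12 and 17.34 and an SD over probes of 0.15 and 0.18. Other windows of this kind held an edge of signal, as at 2781011-2782020, where the plus level of 17.14 and 17.33 went with an SD over probes of 5.32 and 5.42. The medians of such windows describe the larger share of their probes, and with means over probes the strand difference of this window was 6.02 in place of 11.07 log2 units. The window with the strongest minus signal of this kind on sequence 2, at 1735011-1736020, had levels of 17.02 and 17.31 and an SD of 5.06 and 5.48.

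Windows with a strong level on both strands were rare. A window level does not show that both strands were bright at the same place within it. The two-stranded window with the brightest dimmer strand lay at 1765011-1766020 of sequence 2, with 13.69 on the asf1-1 array versus 13.99 on the hip1 deletion array for plus and 13.06 and 13.24 for minus. Its probes were uneven, with SDs from 2.34 to 2.94 over the strands and arrays. The window at 2346011-2347020 had more even probes, with plus at 13.13 and 13.56 (SD 0.53 and 0.58) and minus at 12.69 and 12.86 (SD 1.09 and 1.02). At 1384011-1385020 the strands were level with each other, at 12.26 and 12.41 for plus and 12.29 and 12.44 for minus.

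The long block of sequence 2 set these figures, since it held 40975 of the 43993 probes. It ran from 1000011 to 3049820 with an untiled gap of 1040 bases after 1617470. Of its 2050 windows 1456 (71.0%) were two-stranded, 389 one-stranded, 31 (1.51%) silent and 174 differing between arrays. The 154 windows of the other blocks held 93 two-stranded (60.4%), 30 one-stranded and 22 silent windows (14.3%). A small block on sequence 1, at 2195400-2200359 with 99 probes, had no silent window, and in 5 of its 6 windows plus was the brighter strand by at least 4-fold on both arrays, with median levels of 12.24 and 12.37 for plus and 7.81 and 7.42 for minus. The other small blocks lay on sequence 3. At 1724400-1727359, with 59 probes and 4 windows, 3 windows were one-sided, and at 1838900-1840859, with 39 probes, both measured windows had minus as the brighter strand.

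Cut into 41 segments of 50 kb, the long block was even except in one place. In 40 segments the median level of the brighter strand lay between 11.45 and 12.87, that of the dimmer strand between 6.43 and 7.64, and 60% to 90% of windows were one-sided, with a median of 80%. In the segment from 1600011 to 1650020 the brighter strand had a median of 7.37, the median strand difference was 0.27 log2 units against 3.51 to 5.96 elsewhere, and 2 of 50 windows (4%) were one-sided. This segment also held 13 silent windows (26%), against 0% to 10% in the others. A strand difference cannot exceed the height of the brighter strand above the floor of 6.16. Of the 178 windows of the long block whose brighter strand lay at 8 or below, 0% were one-sided. Their median strand difference was 0.30 log2 units. The small strand difference of this segment is thus in part set by its low signal and the floor.

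**Figure D2:**
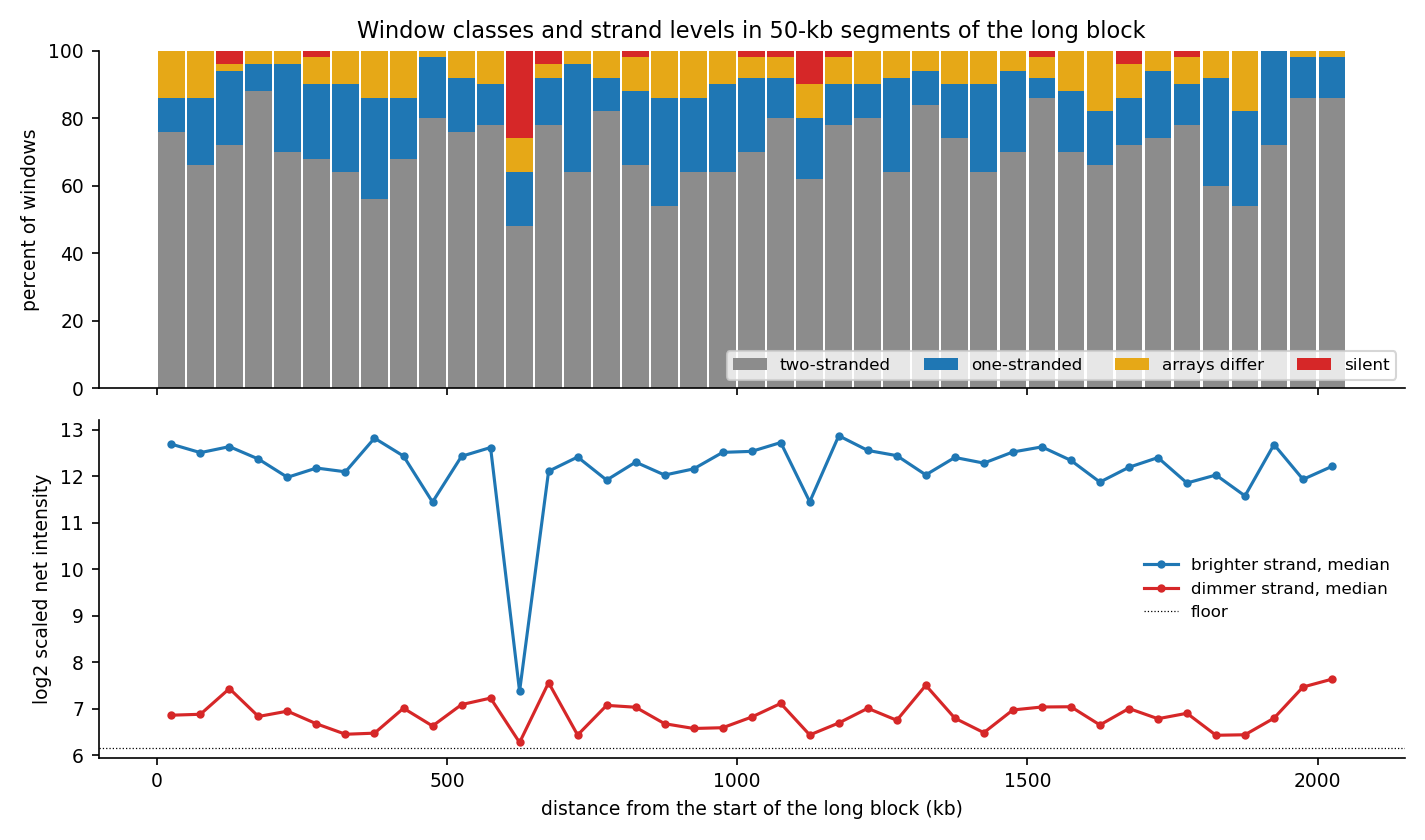
Top, the percent of windows in each class in segments of 50 kb along the long block, against distance from its start in kb. Bottom, the median level of the brighter and of the dimmer strand of each segment in log2 scaled net intensity. One segment stands apart, with a brighter-strand median of 7.37 where the other 40 lie between 11.45 and 12.87.

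Within this segment a silent interval was flanked by arms with low signal on both strands. The silent interval, at 1621011-1632020, was the longest measured, with 11 windows, and where 25% of probes above background were enough to call a strand on the longest was 5 windows. Of its 218 probes 19 were above background on the asf1-1 array versus 20 on the hip1 deletion array, and its median scaled net signal was 26.9 and 26.0 units, against 20.2 and 21.5 for the negative controls. Before it, from 1603011 to 1614020, 9 of 11 windows were two-stranded and not one-sided, and after it, from 1636011 to 1645020, 8 of 9 were. Among these, the window at 1605011-1606020 passed 4-fold on the asf1-1 array alone. The limits of the arms were set after the values were seen. Most windows of the arms thus had signal on both strands without a 4-fold difference on both arrays.

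The arms reached middling levels only. The highest window of the left arm, at 1605011-1606020, had 11.67 on the asf1-1 array versus 10.72 on the hip1 deletion array for plus, and 9.39 and 8.81 for minus. Over the left arm the plus median was 9.04 and 8.37, and the minus median 9.05 and 8.72. Over the right arm the plus median was 9.78 and 8.91, and the minus median 9.18 and 8.73. In both arms and on both strands the asf1-1 array gave the higher value, by less than 2-fold in these medians.

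Turned about an axis with strands exchanged, this region resembled itself in part. The signal of the region was turned about each of 960 possible axes, plus was set against minus, and the likeness was highest about 1625275, inside the silent interval, with a Pearson r of 0.572 over grid points that share probes (0.583 on the asf1-1 array versus 0.561 on the hip1 deletion array). The median over axes was 0.114. A silent centre between brighter sides by itself raises r about an axis within it. The strands of the arms were of like level, so the value does not show an exchange of strands. Nor does it show that the arms mirror each other in detail. Probe sequences are not in the files used here, so whether the probes of one arm also bind RNA of the other cannot be told from them.

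Silence elsewhere came in short pieces. There were 9 silent intervals of at least 2 windows, holding 32 windows, and 21 silent windows stood alone. Without sequence 4, which matches sequence 2 in part as described below, there were 6 such intervals. At the second match, 36001 of sequence 4 falls on 2135361 of sequence 2, so the silent intervals there may not be separate. After the one described above the longest were 23001-29010 of sequence 4, with 6 windows, and 4495001-4498010 of sequence 2, with 3 windows. The others held 2 windows each, at 2135011-2137020, 2672011-2674020 and 4492001-4494010 of sequence 2, at 25011-27020 of sequence 3, and at 33001-35010 and 36001-38010 of sequence 4. In the long block outside the segment from 1600011 and the 30 kb from 2110011, 14 of 1970 windows (0.711%) were silent, so silence was concentrated in a few places. The 30 kb from 2110011 held 4 silent windows of 30 (13.3%), the block at the right end of the tiled part of sequence 2 held 9 of 51 (17.6%), and sequence 4 held 11 of 41 (26.8%).

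Silent windows were not wholly without signal. Their 106 strand-windows had a median scaled net signal of 33.5 units on the asf1-1 array versus 30.8 on the hip1 deletion array, above the 20.2 and 21.5 of the negative controls. No probe was above background in 23 of them on the asf1-1 array and in 16 on the hip1 deletion array. Where net signal at least as large as the local background was enough for a probe to count as above it, no window was silent. On average 17.8% of their probes on the asf1-1 array versus 19.0% on the hip1 deletion array were above background, against the 2.17% and 0.789% of negative controls. Silent therefore means low and not zero signal, and RNA that is not made cannot be told apart from DNA that the strain lacks, since no hybridisation of genomic DNA was analysed here.

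At the level of single probes, 5 runs of at least 20 neighbouring probes of both strands had none above background on either array. Of these 4 lay inside the longest silent interval of sequence 2. They were 41 probes at 1621061-1623120, 35 at 1629161-1630970, 23 at 1627061-1628220 and 20 at 1623411-1624420. The fifth, 20 probes at 25761-26770 of sequence 3, lay just past the brightest part of the array.

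That brightest part was the first 24 kb of sequence 3, a boundary set after the values were seen. Its minus strand had a median level of 16.68 on the asf1-1 array versus 17.42 on the hip1 deletion array, and its plus strand 9.04 and 8.03. Of the 12 brightest strand-windows 8 lay here, all on minus, and of the 100 brightest 20 did. The brightest, at 7011-7970, had 17.15 on the asf1-1 array (SD over 10 probes 0.29) and 17.96 on the hip1 deletion array (SD 0.45). No window was silent, 22 of 24 were two-stranded, and 20 were one-sided. With the boundary at 20 kb the minus median was 16.62 and 17.38. In the remaining 24011-49970 of the block the minus median was 8.82 and 8.94, and 10 of 26 windows were one-sided.

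The pattern of these 24 kb repeated itself. Shifted by 10900 bp along the sequence, the signal of both strands matched with a Pearson r of 0.979 over an overlap of 13100 bp, and with 0.973 and 0.982 on the arrays taken alone. Within a strand r was 0.883 on plus and 0.973 on minus, and the constant difference between the strands enters the pooled value. Among the 380 shifts tried, the pooled value had a median of 0.556, and none more than 1 kb away from the best shift passed 0.734. The windows at 7011 and 18011 of the minus strand show it, at 17.15 and 17.96 for the first and 17.11 and 17.92 for the second. The windows of these 24 kb are thus not independent of each other. Per the labels, the RNA had been depleted of ribosomal RNA before labelling, and how far the depletion reached any stretch was not measured.

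**Figure D3:**
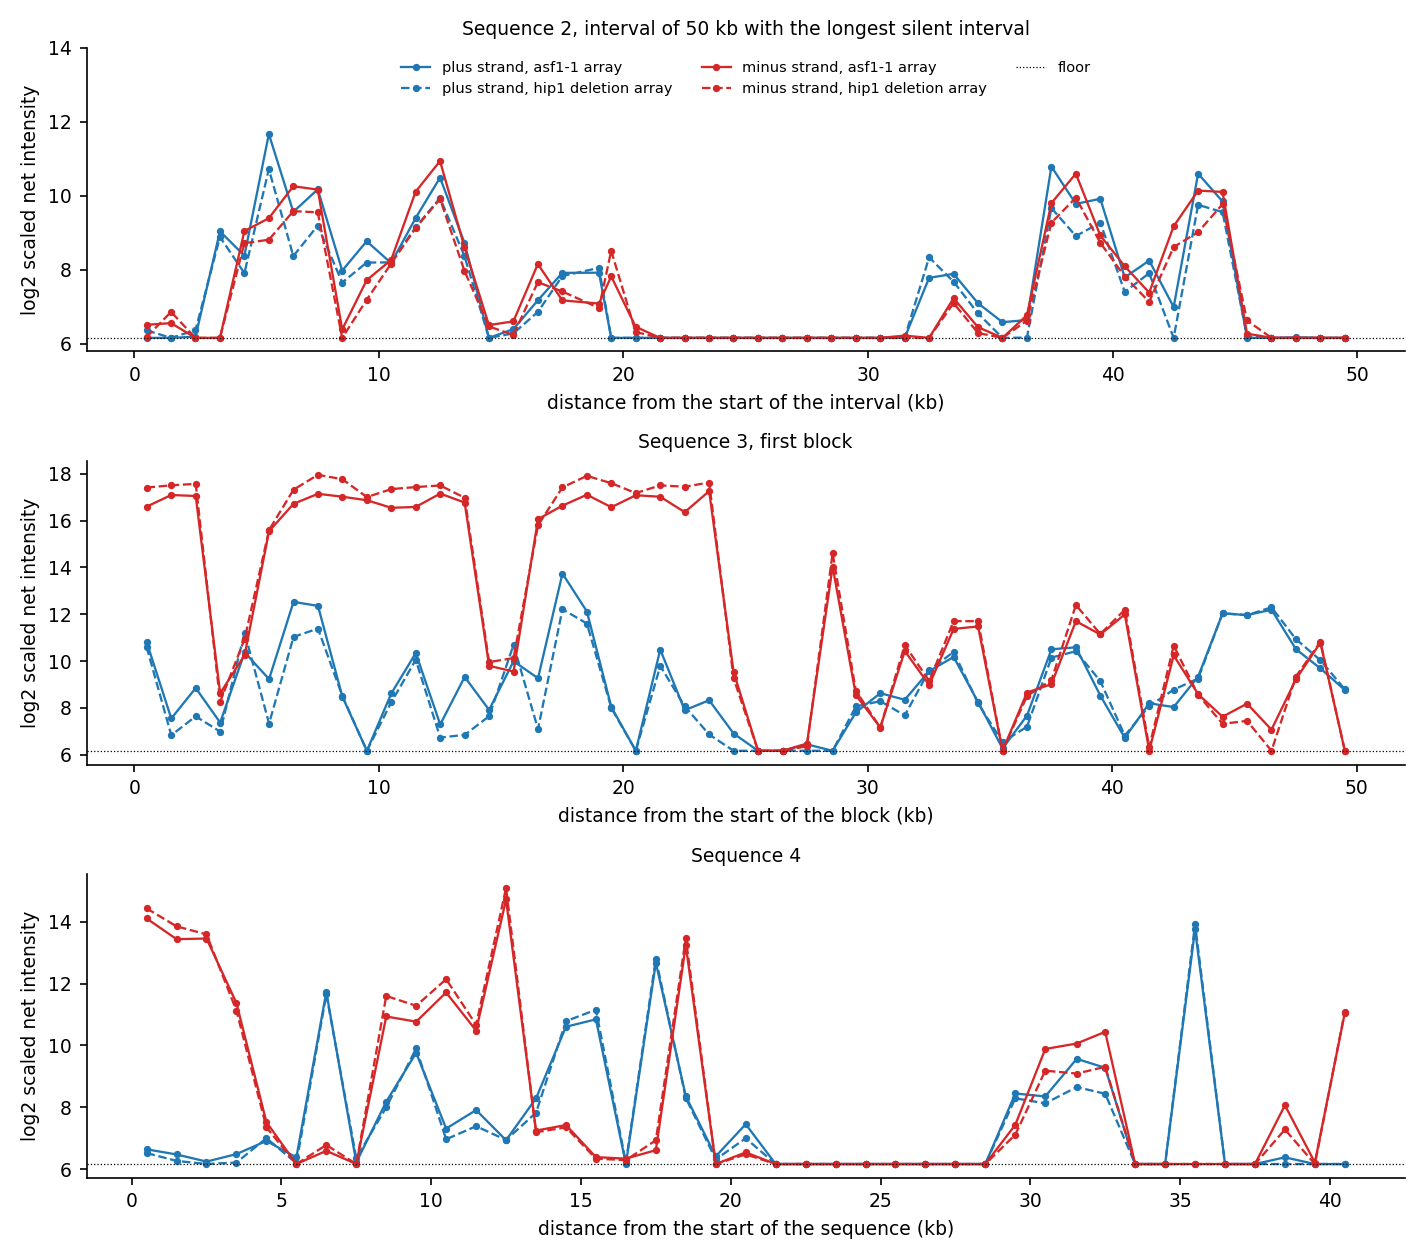
Level of each 1-kb window in log2 scaled net intensity against distance in kb along the 50-kb segment of sequence 2 that stands apart (top), the first block of sequence 3 (middle) and sequence 4 (bottom). Blue is plus and red is minus, solid lines are the asf1-1 array and dashed lines the hip1 deletion array. The lines of the arrays run close together and part most on the plus strand of the first 24 kb of sequence 3, and both strands lie at the floor in the silent intervals.

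Sequence 4, 41210 bases tiled with 824 probes, matched sequence 2 in its signal along much of its length. Its first 20 kb, taken in pieces of 5 kb and set against 79952 positions and orientations of the long block, each matched best at an offset of 2111560, with r of 0.989, 0.985, 0.982 and 0.990. The highest r at any other place was 0.750 to 0.924 for these pieces. The piece from 35001 to 40000 matched best at another offset, 2099360, with r of 0.972 against 0.789 elsewhere. The pieces between 20001 and 35000 had lower best values of 0.585, 0.816 and 0.808, against 0.532, 0.701 and 0.801 at the next best place. Taken in pieces of 1 kb, 20001 to 23000 continued at the first offset with r of 0.904, 0.651 and 0.777, and 34001 to 35000 matched at the second with r of 0.918. From 23001 to 34000 no 1-kb piece passed an r of 0.394 at the first offset or 0.544 at the second. Silent windows, such as the 6 at 23001-29010, hold little signal by which a match could be judged.

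After these silent windows, from 29001 to 33010, sequence 4 had 4 two-stranded windows with strands within 4-fold. The plus median there was 8.86 and 8.36, and the minus median 9.97 and 9.14. These are levels like those of the arms on sequence 2. Windows of sequence 4 that match sequence 2 were counted alongside their match, and leaving sequence 4 out gave 42 silent, 413 one-stranded and 1527 two-stranded windows.

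The block at the right end of the tiled part of sequence 2, 4491601-4541560 with 999 probes, was dim. It held 9 silent, 16 one-stranded and 20 two-stranded windows of 51, and the median level of its brighter strand was 7.83. A stretch of 7 windows at 4528001-4535010 stood out in it, with plus at a median of 11.13 on the asf1-1 array versus 11.53 on the hip1 deletion array and minus at 6.65 and 6.67, and all 7 were one-sided. The window at 4525001-4526010 had the strongest minus signal of the block, 14.67 and 15.22, with plus at the floor. Of the last 4 windows, from 4538001, none was one-sided. Their plus median was 7.16 and 6.98, and their minus median 8.23 and 6.19. At 4538001-4539010 the strands were over 4-fold apart on the asf1-1 array alone. Plus there was at 6.84 and 7.07, and minus at 9.73 and 8.19.

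The arrays agreed closely. Over the 43256 probes, which share neighbours and possibly the extract, the correlation was 0.994 (Pearson's r) or 0.987 (Spearman's rho), and over the 4408 strand-windows r was 0.995 and rho 0.990. The call of above or below background was the same on both arrays for 95.3% of probes, with 1148 above on the asf1-1 array alone and 882 on the hip1 deletion array alone. Differences between arrays had an SD of 0.38 log2 units over probes and of 0.33 over strand-windows. There were 57 strand-windows at least 2-fold apart, 1.29% of all, and 41 of them were higher on the asf1-1 array, 0.93% of all. The count was 98 with the scanner's processed intensities. Without scaling 123 strand-windows were higher on the asf1-1 array versus 1 on the hip1 deletion array, and with quantile normalization 32 and 14 were.

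The difference moved with the level. Strand-windows between 8 and 9 had a median difference (asf1-1 array minus hip1 deletion array) of 0.05 with an SD of 0.42, and those above 15 had a median of -0.38 with an SD of 0.22. Variation between arrays was largest at levels from 7 to 10, with SDs of 0.39 to 0.42, and strand-windows below 7, many of them at the floor, had an SD of 0.22. The direction rests on the scaling. Without scaling the median was 0.38 between 8 and 9 and -0.05 above 15, and with quantile normalization it was -0.04 and 0.01.

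**Figure D4:**
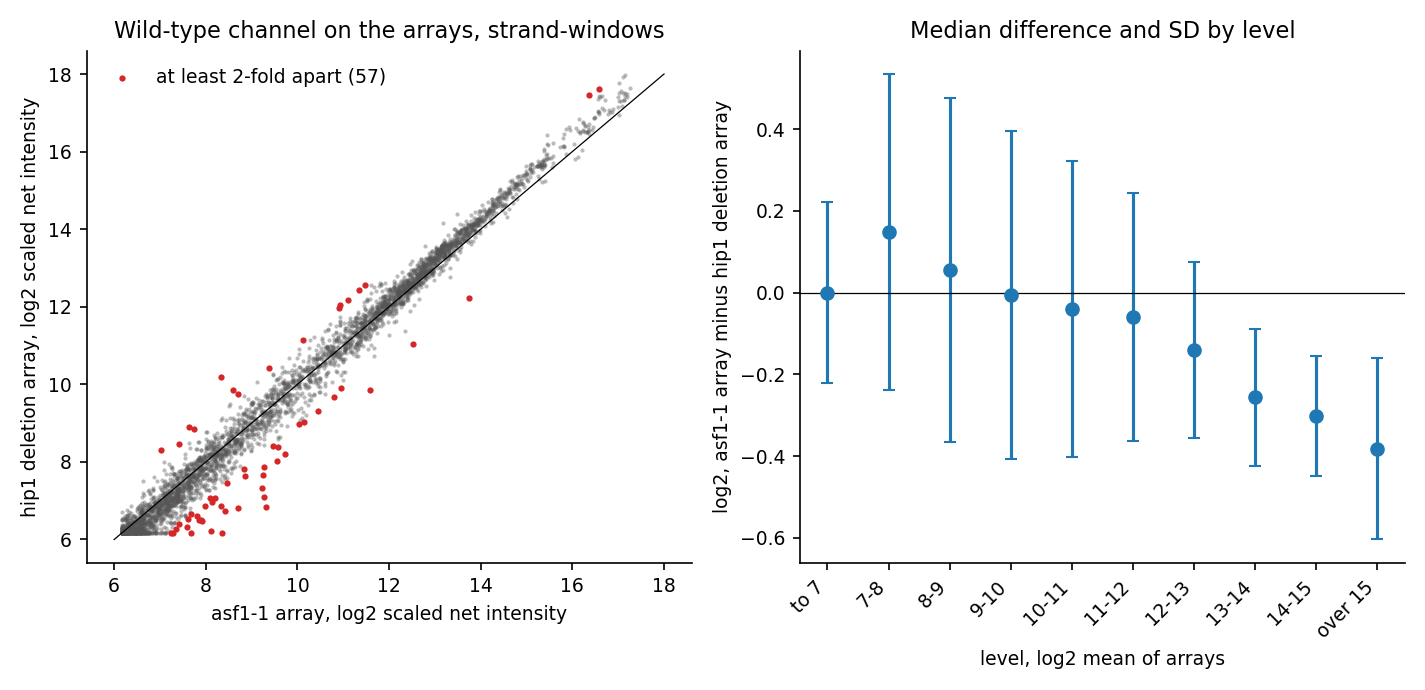
Left, the level of each strand-window on the asf1-1 array (x axis) against that on the hip1 deletion array (y axis), in log2 scaled net intensity of the wild-type channel, with the 57 that differ at least 2-fold in red. Right, the median difference between arrays by level, in log2 units, with bars of 1 SD over strand-windows. On this scaling the median goes from 0.15 between 7 and 8 to -0.38 above 15.

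Of the 57 strand-windows that differed 43 lay in the long block, 4 of them in the segment from 1600011, while 9 lay in the first block of sequence 3, 4 in the right-end block and 1 on sequence 4. On the plus strand of the first 24 kb of sequence 3, 7 of 24 strand-windows were at least 2-fold higher on the asf1-1 array, and in the long block 29 of 4100 were. The largest difference was at 13061-14020, with 9.32 on the asf1-1 array (SD over 10 probes 3.05) and 6.84 on the hip1 deletion array (SD 2.21). The window at 16061-17020 had 9.26 and 7.09, and the one at 5061-6020 had 9.23 and 7.33. The latter pair lies about 1 repeat length apart. So do the window at 13061 and that at 2061-3020, which had 8.85 and 7.64. The windows at 6061-7020 (12.53 and 11.03) and 17061-18020 (13.74 and 12.22) are a further such pair. Windows paired in this way do not count as separate cases. On the minus strand of the right-end block 4 of 51 were higher on the asf1-1 array, all in its last windows, such as 4539051-4540010 with 8.11 and 6.21.

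Differences in the other direction were found in 16 strand-windows. The largest was at 2870061-2871020 of sequence 2, plus, with 8.33 on the asf1-1 array (SD 1.85) and 10.19 on the hip1 deletion array (SD 1.79). A neighbour on the opposite strand, 2868011-2868970, had 7.62 and 8.90. The source of the differences between the arrays was not tested.

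Runs of windows called on for a strand, named transcribed stretches here, were long relative to the window. They can rest on weak signal, since the dimmer strand of a window had a median of 6.83, near the floor. Their number moved with the call. Over both strands there were 433, against 707 when 80% of probes had to be above background and 143 with the test of positive and significant signal. Plus was on in 1837 windows, in 215 runs with a median length of 6 windows and a longest of 58, and minus in 1852 windows, in 218 runs with a median of 5 and a longest of 57. One-sided runs were shorter. Plus had 296 such runs and minus 308, each with a median of 2 windows, and 96 and 118 of them were single windows.

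The longest one-sided runs show one strand as the brighter over many kilobases. On plus the longest was 2276011-2291020 with 15 windows, where plus had a median of 13.62 on the asf1-1 array versus 13.82 on the hip1 deletion array and minus 6.74 and 6.27. On minus the longest was 1848011-1866020 with 18 windows, at 12.01 and 12.04, with a plus median at the floor on both arrays and a highest plus window at 9.05. The minus run at 1392011-1403020, with 11 windows and levels of 13.99 and 14.23, was shorter and brighter than both.

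Signal was uneven along these runs. In the 117 runs of each strand with at least 3 windows, read in the direction of the strand as written, cut into 10 equal parts and set against the mean log2 signal of the run, the first part was at -1.09 and -1.22 log2 units on plus and at -1.44 and -1.56 on minus. The part before the last was at 0.58 and 0.70 on plus and at 0.54 and 0.65 on minus. The last part was lower again, at -0.47 and -0.35 on plus and -0.15 and -0.06 on minus. Signal was thus highest towards the end at which the strand, as written, runs out.

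Where the bright strand changed, the kind of change mattered. In the long block the brighter strand passed from plus to minus, so that the strands as written point towards each other, 222 times when chosen on the asf1-1 array, and from minus to plus, so that they point apart, 223 times. In 171 of the first kind (77.0%) the one-sided windows were next to each other, as against 100 of the second (44.8%). Chosen on the hip1 deletion array the counts were 176 of 225 (78.2%) and 103 of 226 (45.6%). Switches towards each other were thus tighter than switches apart on both arrays. With a 2-fold strand threshold 212 switches towards each other and 169 apart joined neighbouring windows, and with an 8-fold threshold 138 and 44 did.

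The windows between the one-sided windows differed in level as well. Chosen on the asf1-1 array and measured on the hip1 deletion array, the brighter strand of the windows between had a median of 9.89 where the strands point towards each other and 8.11 where they point apart. Chosen on the hip1 deletion array and measured on the asf1-1 array the medians were 9.47 and 7.97. The flanking one-sided windows had medians of 13.19 and 12.27 in the first case and 12.88 and 12.16 in the second. Signal between strands that point apart was thus lower, and so was that of their flanks.

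Probes were alike only over short distances. In the long block, probes of the same strand had an r of 0.847 at 100 bp, 0.547 at 500 bp, 0.304 at 1000 bp and 0.019 at 5000 bp, over 39442 to 39620 pairs that share probes. Probes of opposite strands had an r of -0.487 at 50 bp, so that a bright probe tended to face a dim one. The likeness within a strand was thus largely gone after 2000 bp, where r was 0.098.

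**Figure D5:**
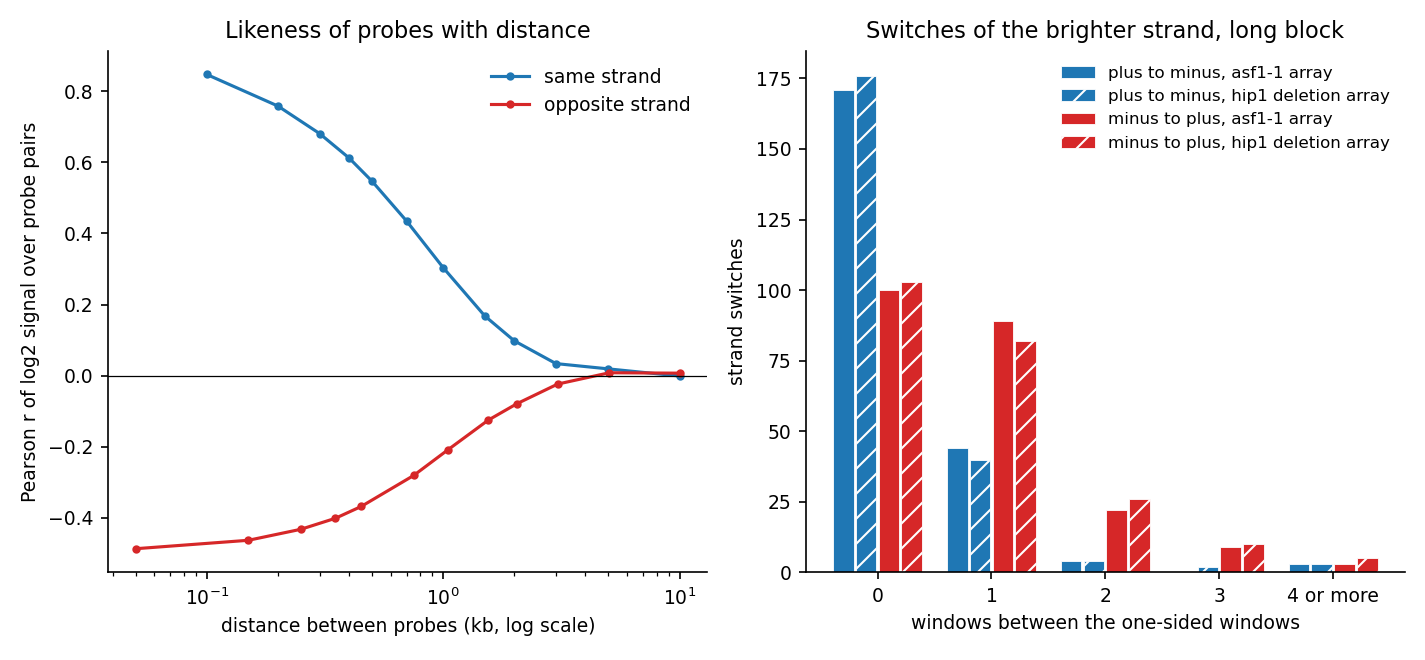
Left, Pearson r of the log2 signal of probe pairs (mean of both arrays) against their distance in kb on a log axis, for pairs on the same and on opposite strands of the long block. Right, the number of switches of the brighter strand by the number of windows between the one-sided windows, for each direction and for the array on which they were chosen. Switches from plus to minus are mostly between neighbouring windows, 171 of 222 and 176 of 225.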

How the data were processed

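Wild-type RNA was measured in the green channel of 2 two-colour Agilent arrays. Per the file headers, spots were quantified with Agilent Feature Extraction 10.1.1.1, and the median intensity values used here (spot, and background around it) were deposited without normalization. The well-above-background, outlier and saturation flags (0 or 1) are the scanner software's, per the file headers. The processed intensity in the deposited files, background-subtracted and dye-normalized, served as an alternative. Per the labels' protocols, RNA was extracted with the Master Pure kit, depleted of ribosomal RNA with RiboMinus and labelled as cDNA with a SuperScript indirect kit.

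Control spots (1227) and outlier spots were left out. Net signals were multiplied by 0.896 (asf1-1 array) and 1.13 (hip1 deletion array), floored at the higher of the arrays' 1st percentiles among probes above background, and put on the log2 scale. A strand of a 1-kb window needed 3 probes. SDs are over probes and cover spot differences only. With 2 hybridisations, precision is limited by their number, no p-value was computed, and windows of different position compare different probe sequences. Blocks, the brightest windows, the longest silent intervals and runs, the strongest one- and two-stranded windows and the largest differences between arrays were named by rule. The members and lists were chosen with earlier results of these data known. The steps were tested on simulated data in which on and off strands were set far apart in level. Calls near the floor were not tested by this. Python 3.11.15, numpy 2.4.6, pandas 2.3.3, scipy 1.17.1 and matplotlib 3.10.9 were used. Alternatives changed the call, share of probes, background, scaling, floor, window, summary, strand threshold and arrays. The mutant channels, the deposited log ratios and the authors' series table were not used here directly. Dye normalization may carry something of the mutant channel into the processed intensity, which served as an alternative only. No sequence is printed, since the files used hold none.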

Additional observations from a re-analysis of the deposited data

How the results depend on the processing

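Across 23 settings, 190 summary values were recomputed, of which 143 stayed near the reported value (within 1.5 times for counts, 0.25 for log2 values, 0.1 for r, 1 SD between arrays for shares) and 47 moved. Of 448 values of 32 named windows 378 stayed within 0.25 log2 units or 1 SD between arrays and 70 moved. Of those that moved, 18 did so with means over probes and 16 with processed intensities. Part of the count that stayed was fixed in advance. The strand threshold does not enter these values, and needing 8 probes left them unchanged. On 1 array alone a value cannot move by more than 1 SD between arrays. Some summary values were fixed likewise, such as the median strand difference under other strand thresholds. Strand differences changed sign in 8 cases, in 5 of the 10 two-stranded windows named, none of them 4-fold apart in the reported setting, 5 with means over probes, 2 with alternate probes and 1 on the asf1-1 array alone. An example is 1125011, from -0.78 to 1.21. Means over probes lowered some bright windows, as at 1794061 on plus, from 17.30 to 13.35. The class counts moved with the call of a probe. When 80% of probes had to be above background there were 193 silent, 889 one-stranded and 898 two-stranded windows, 32 silent intervals and 707 transcribed stretches (reported: 433). With 25% there were 24 silent, 172 one-stranded and 118 differing windows, 5 silent intervals with a longest of 5 kb, and 238 stretches. With the scanner's test of positive and significant signal, 90.6% of probes passed, leaving 17 silent, 57 one-stranded and 87 differing windows, 2 silent intervals, 0 runs of 20 probes and 143 stretches. With net signal at least the local background, 97.7% passed, leaving 0 silent, 0 one-stranded and 9 differing windows, 0 silent intervals, a longest of 0 kb, 0 runs of probes and 25 stretches.

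In 2-kb windows, which are fewer, there were 21 silent, 162 one-stranded, 843 two-stranded and 79 differing windows, 813 one-sided windows and 206 stretches, and in 500-bp windows 155, 1100, 2736, 396, 3250 and 871. The median strand difference was 4.29 with processed intensities and 3.87 with means over probes, and strand-windows at least 2-fold apart numbered 98 and 33, and 124 without scaling. With alternate probes 2 silent runs of probes were left. Minus-to-plus switches between neighbouring windows numbered 169 at a 2-fold and 44 at an 8-fold strand threshold. On the arrays taken alone, runs of 20 silent probes numbered 11 on the asf1-1 array versus 7 on the hip1 deletion array (reported: 5), silent windows 56 to 60, one-sided windows 1673 to 1678, and the median strand difference 4.54 to 4.77. Processed intensities put the brightest windows of sequence 3 near 16, as at 7011-7970 with 16.01. The cause of these shifts was not tested beyond the smaller or larger number of windows, probes or arrays in each setting. Without sequence 4 and the first 24 kb of sequence 3, alternatives chosen after seeing the data, 42 silent, 1505 two-stranded and 1606 one-sided windows were left.

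No paired analysis was possible because each array is the only one of its kind and no test was run. The planned mean spot signal was not run, since no column of it is in the files used here. Signal over background limits the silent class, and nothing here separates wild-type cultures from each other.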
